A study of Zea mays with 12 samples.

Results

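A set of 200 genes with a large spread between samples, and with overlapping values in mutant and wild type, was taken from 39324 genes measured in maize shoot apices. Abundance was given as TPM, a transcript abundance that corrects for depth and transcript length and sums to nearly the same total in every sample. It was averaged over the 2 sequencing runs of each sample. Of 16778 genes with a mean of at least 5 TPM over the 6 samples, 12914 had mutant and wild-type values that overlapped, meaning that neither genotype lay entirely above the other. The 200 members were those among the 12914 with the highest SD of log2(TPM + 1) over the 6 samples. Since these values chose the members, their spread is given as a description, without a test.

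The samples were shoot apices of maize inbred line B104, dissected from seedlings germinated for 7 days. The mutants, 3 samples numbered 2, 3 and 4, were homozygous for CRISPR/Cas9 loss-of-function alleles of tml1 and tml2, the TOO MANY LATERALS genes. The reference plants, also 3 samples numbered 2, 3 and 4, were wild types that segregated in the same material. Each sample held the shoot apical meristem with leaf primordia up to plastochron 5 and sheath tissue, after root, embryo and coleoptile had been cut away. The labels speak of pooled primordia and of 3 individual apices per genotype, so whether a sample is 1 apex or more is not settled by them. The alleles segregated apart from the transgene, and no label names the editing events or the number of independent lines.

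The shoot apical meristem is the dome of dividing cells that produces leaf primordia in turn. A dissected apex therefore holds primordia of several ages, from dividing cells to tissue in which veins, epidermis and chloroplasts are forming. The genes read from such a sample depend on how many primordia it holds, how old they are and how the sheath was cut, besides the plant's genotype and state. In bulk RNA, fewer cells of a type and less RNA per cell cannot be told apart.

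Sequencing depth was similar, at 27213052 to 29968419 estimated counts in the mutants and 29504680 to 31980536 in the wild types. Mutant 4 and wild type 3 were most often the highest sample in the 200 genes, for 97 and 48 of them, followed by mutant 3 for 41. The genotype comparison is therefore also given without each of these samples. The gene IDs are version 4 gene models, per the file headers. None of them, 0 of 39324, was found in the RefSeq gene table of 49888 genes at hand. Gene names, functions, chromosomes and promoter sequences are therefore not given, and the levels of the edited genes were not analysed here. For the same reason 0 of the 22 marker lists written by gene name could be matched to measured genes. The labelled tissue was thus not checked against its markers, and which tissue or stage the members belong to was not tested.

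The 200 genes reached SDs of log2(TPM + 1) from 1.64 to 3.43, with a median of 1.94, beside a median of 0.298 over the 16778 genes. They were not particularly abundant: their mean levels ran from 5.01 to 917 TPM with a median of 22.1 TPM, and the median of the 16778 genes was 21.0 TPM. The members also varied widely inside each genotype, which the rule favours by asking for overlapping values and a high SD. The median SD among the 3 mutants was 2.04 and among the 3 wild types 1.85, beside 0.267 and 0.215 over the 16778 genes. At the edge of the set, Zm00001d032363 and Zm00001d043479 came in with SDs of 1.640 and 1.636, and Zm00001d040441 and Zm00001d053612 stayed out with 1.634 and 1.633. Of 273 genes with an SD at least as high as that of the last member, 73 (26.7%) had genotypes that did not overlap and were left out for that reason. Genes without overlap made up 23% of all 16778.

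**Figure D1:**
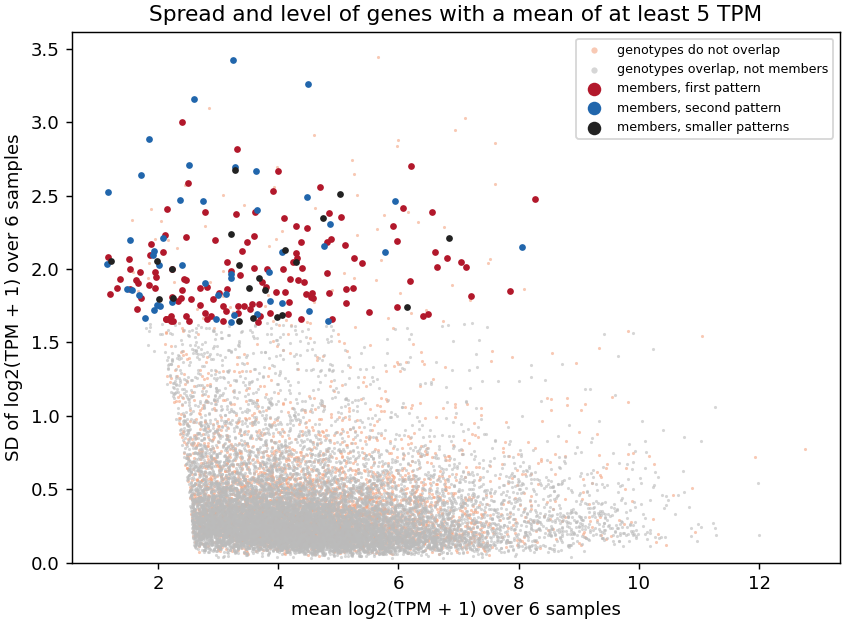
Mean log2(TPM + 1) over the 6 samples (x axis) and SD of log2(TPM + 1) over the 6 samples (y axis) for the 16778 genes with a mean of at least 5 TPM, 1 point per gene. The members, in red, blue and black, start at an SD of 1.64 and lie among pale orange points, the genes whose genotypes did not overlap.

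Together the members made up a very different share of the transcripts in each sample. Their summed level was 3979, 9787 and 26400 TPM in mutants 2, 3 and 4, against 2067, 15360 and 2618 TPM in wild types 2, 3 and 4. The ranges of the genotypes overlapped, with mutant 4 highest and wild type 2 lowest. As a share of all listed TPM this was 2.703% in mutant 4, the highest, and 0.211% in wild type 2, the lowest. The median member was at 5.62, 20.1 and 40.5 TPM in mutants 2, 3 and 4, against 1.82, 24.4 and 4.14 TPM in wild types 2, 3 and 4. Medians over the 16778 genes stayed between 21.1 and 23.2 TPM in the mutants and between 17.7 and 21.0 TPM in the wild types.

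The members fell into a few shared sample profiles. Average linkage on the Pearson correlation of their 6 values, split at a distance of 0.5, gave 9 profiles, of which 2 held at least 10 genes. The first held 131 genes (65.5%), the second 48 (24.0%), and the other 21 genes were spread over 7 small profiles. Without mutant 3 the second largest group held 28 genes, so its size depends on the samples used. The correlation of the mean profiles of the first and second pattern was 0.43 over the 6 samples. These groups were formed from the same values that they describe, so none of the differences inside them is a test.

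**Figure D2:**
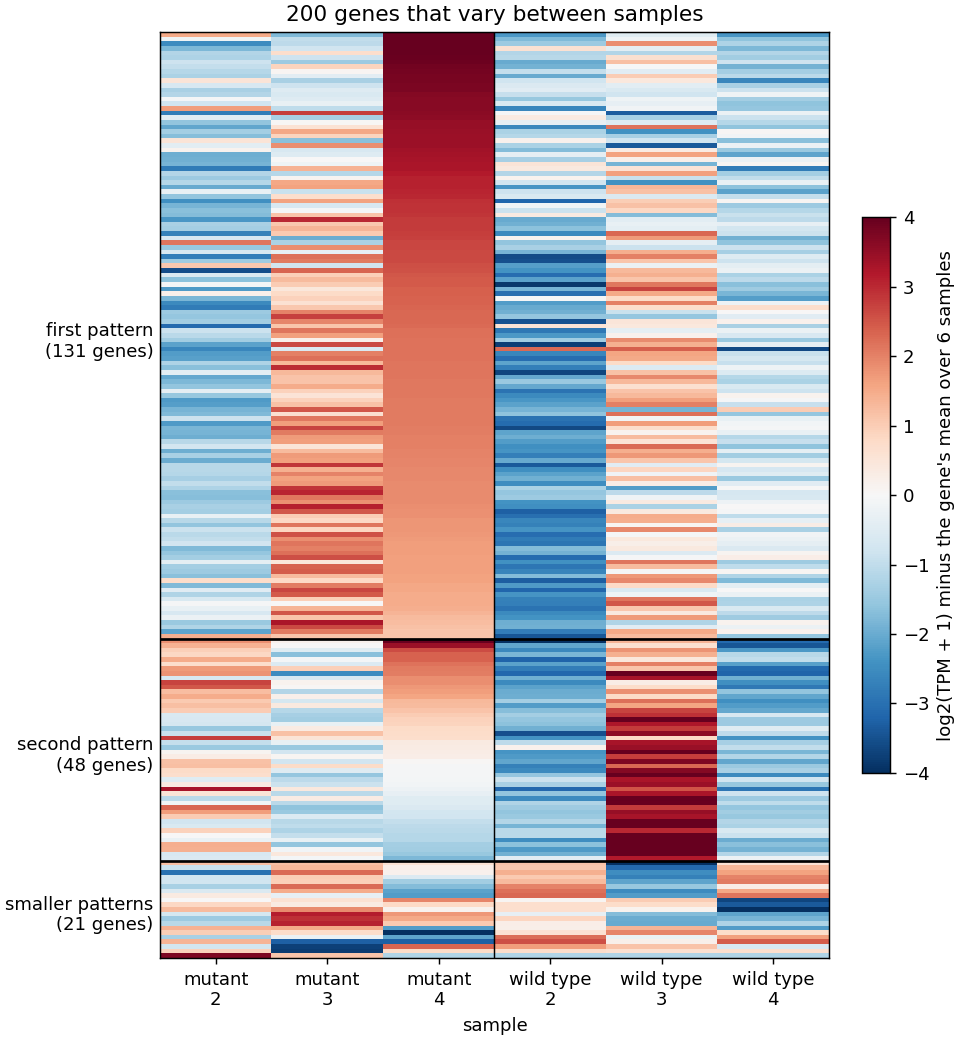
Colour gives log2(TPM + 1) minus the gene's own mean over 6 samples, with 1 column per sample and 1 row per member in the first pattern (131 genes), the second (48 genes) and smaller ones (21 genes). Mutant 4 is above the mean throughout the first pattern, and wild type 3 is the highest sample for 36 genes of the second.

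In the first pattern, mutant 4 was high and wild type 2, wild type 4 and mutant 2 were low, with mutant 3 and wild type 3 in between. The median TPM of its 131 genes was 3.60, 26.7 and 57.7 in mutants 2, 3 and 4, against 1.51, 17.0 and 5.65 in wild types 2, 3 and 4. Mutant 4 was the highest sample for 87 genes, mutant 3 for 32, wild type 3 for 11 and mutant 2 for 1. Mutant 2 was the lowest sample for 26 genes, wild type 2 for 76 and wild type 4 for 13, and 10 genes had samples tied at 0. Within a genotype, mutant 2 was the lowest mutant for 116 of the 131 genes, and wild type 3 was the highest wild type for 97. Summed over the pattern, the level was 1721, 8265 and 21880 TPM in mutants 2, 3 and 4, against 898.4, 8640 and 1782 TPM in wild types 2, 3 and 4. Mutant 3 and wild type 3 were thus close in sum, as were mutant 2 and wild type 4. On the TPM + 1 scale the median member was 13.97-fold higher in mutant 4 than in mutant 2 and 6.84-fold higher in wild type 3 than in wild type 2, so samples of the same genotype lay far apart.

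**Figure D3:**
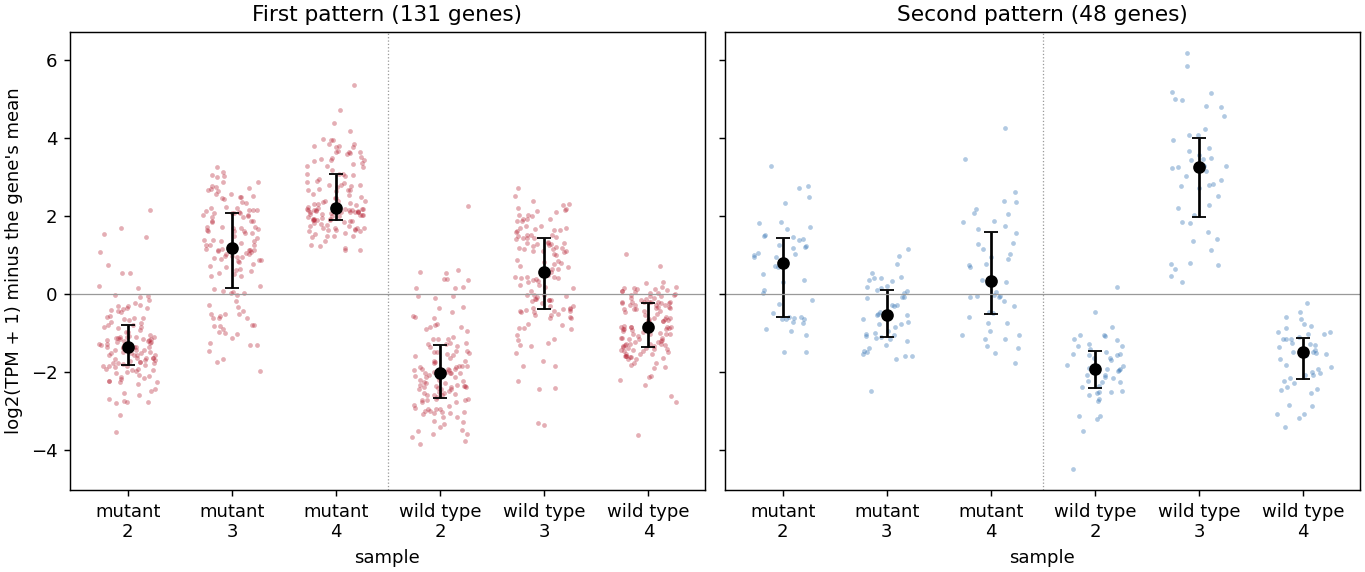
Each coloured point is 1 member in 1 sample, as log2(TPM + 1) minus the gene's mean over 6 samples (y axis). Black points are medians over members with bars between the quartiles: in the first pattern mutant 4 is highest and wild type 2 lowest, with medians of 57.7 and 1.51 TPM, and in the second pattern wild type 3 is highest, with a median of 59.4 TPM.

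The member with the largest spread in the first pattern was close to a gene of 1 sample. Zm00001d031794 was at 14.3, 0.564 and 214 TPM in mutants 2, 3 and 4, against 0.0820, 2.81 and 0.0523 TPM in wild types 2, 3 and 4. Only mutant 4 was far above the others, and mutant 3 lay below wild type 3, so the genotypes overlapped. Zm00001d048949 was at 9.97, 337 and 462 TPM in mutants 2, 3 and 4, against 5.11, 294 and 50.7 TPM in wild types 2, 3 and 4. Mutants 3 and 4 and wild type 3 were high, and mutant 2 and wild type 2 low. Its genotype means were 270 ± 234 TPM in the mutants and 117 ± 156 TPM in the wild types (SD, n = 3 each), so the SD within a genotype was about as large as the mean.

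The most abundant members of the first pattern had the same form. Zm00001d008548, the most abundant of the 200, was at 72.1, 461 and 3431 TPM in mutants 2, 3 and 4, against 51.1, 1388 and 100 TPM in wild types 2, 3 and 4. Zm00001d021901 was at 73.6, 557 and 1271 TPM in mutants 2, 3 and 4, against 51.9, 500 and 112 TPM in wild types 2, 3 and 4. For both, the lowest samples of the genotypes, mutant 2 and wild type 2, were close to each other, and mutant 4 was far above wild type 3.

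A pair of high-SD members of the first pattern departed from this order. Zm00001d012090 was at 0.449, 67.2 and 122 TPM in mutants 2, 3 and 4, against 8.59, 0 and 7.59 TPM in wild types 2, 3 and 4. Wild type 3, the highest wild type for 97 of the 131 genes of the pattern, was listed at 0 here. Zm00001d042867 was at 1.62, 9.64 and 70.5 TPM in mutants 2, 3 and 4, against 74.8, 81.4 and 0.290 TPM in wild types 2, 3 and 4. It was low in mutant 2 and wild type 4 but high in wild type 2. The deposited lengths go down to a few bases, below the read length, so they may be effective lengths, which are shorter than the transcripts. Both have short deposited lengths, 152 and 219 bases, and the runs of Zm00001d012090 differed by 1.74 units of log2(TPM + 1) in 1 sample.

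A finer split of the same tree, at a distance of 0.3, parted the first pattern into groups of 84, 22 and 21 genes besides a few others. In the 84 genes mutants 3 and 4 were about level, with medians of 43.0 and 46.9 TPM, and wild type 3 followed at 25.5 TPM. In the 22 genes mutant 4 was the highest sample for all, with a median of 67.4 TPM, mutant 3 was next at 10.8 TPM, and wild type 3 was low at 1.84 TPM. In the 21 genes mutant 4 was again highest for all, at 116 TPM, but wild type 3 was next at 17.1 TPM and mutant 3 was low at 2.13 TPM. Mutant 4 was thus high in each of these groups, while the sample that came second changed.

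In the second pattern, wild type 3 was high and the other wild types were low. The median TPM of its 48 genes was 11.5, 4.11 and 7.64 in mutants 2, 3 and 4, against 0.388, 59.4 and 1.16 in wild types 2, 3 and 4. The 3 mutants lay between the wild types. Wild type 3 was the highest sample for 36 genes, mutant 4 for 8 and mutant 2 for 4, and wild type 3 was the highest wild type for all 48. Wild type 2 was the lowest sample for 24 and wild type 4 for 13, and 6 genes had samples tied at 0. On the TPM + 1 scale the median member was 28.1-fold higher in wild type 3 than in wild type 2. The mutants shared only part of an order: mutant 3 was the lowest mutant for 32 of the 48 genes. The highest mutant was mutant 4 for 22 genes and mutant 2 for 22.

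Several leading members of the second pattern were read almost in wild type 3 alone. Zm00001d044906 was at 4.11, 4.00 and 1.73 TPM in mutants 2, 3 and 4, against 0.0849, 439 and 0.521 TPM in wild types 2, 3 and 4. Zm00001d051251 was at 1.35, 0.786 and 0.738 TPM in mutants 2, 3 and 4, against 0, 206 and 0.4997 TPM in wild types 2, 3 and 4. Every sample but wild type 3 was under 5 TPM for both genes. Zm00001d028693, which had the largest spread of all members, was at 32.3, 0.680 and 38.0 TPM in mutants 2, 3 and 4, against 0.0796, 303 and 0.0367 TPM in wild types 2, 3 and 4. For this gene mutants 2 and 4 stood well above mutant 3 and above the other wild types.

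The other named members of the second pattern were highest in mutant 4. Zm00001d042114 was at 514, 190 and 1613 TPM in mutants 2, 3 and 4, against 43.3, 931 and 53.7 TPM in wild types 2, 3 and 4. Zm00001d016705 was at 159, 60.8 and 672 TPM in mutants 2, 3 and 4, against 13.4, 94.4 and 4.77 TPM in wild types 2, 3 and 4. Zm00001d045361 was at 79.8, 24.5 and 428 TPM in mutants 2, 3 and 4, against 0, 56.7 and 1.65 TPM in wild types 2, 3 and 4. All had wild types 2 and 4 as the lowest samples. The last has a deposited length of 79.1 bases and few counts per TPM. The split at 0.3 parted the second pattern into groups of 30 and 18 genes. Wild type 3 was the highest sample for all 30, with a median of 81.4 TPM, and the medians of the other samples were at most 5.28 TPM. The 18 genes had medians of 33.6, 10.8 and 43.6 TPM in mutants 2, 3 and 4. In wild types 2, 3 and 4 their medians were 1.09, 43.8 and 1.65 TPM. Of the 18, 8 were highest in mutant 4, 6 in wild type 3 and 4 in mutant 2.

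**Figure D4:**
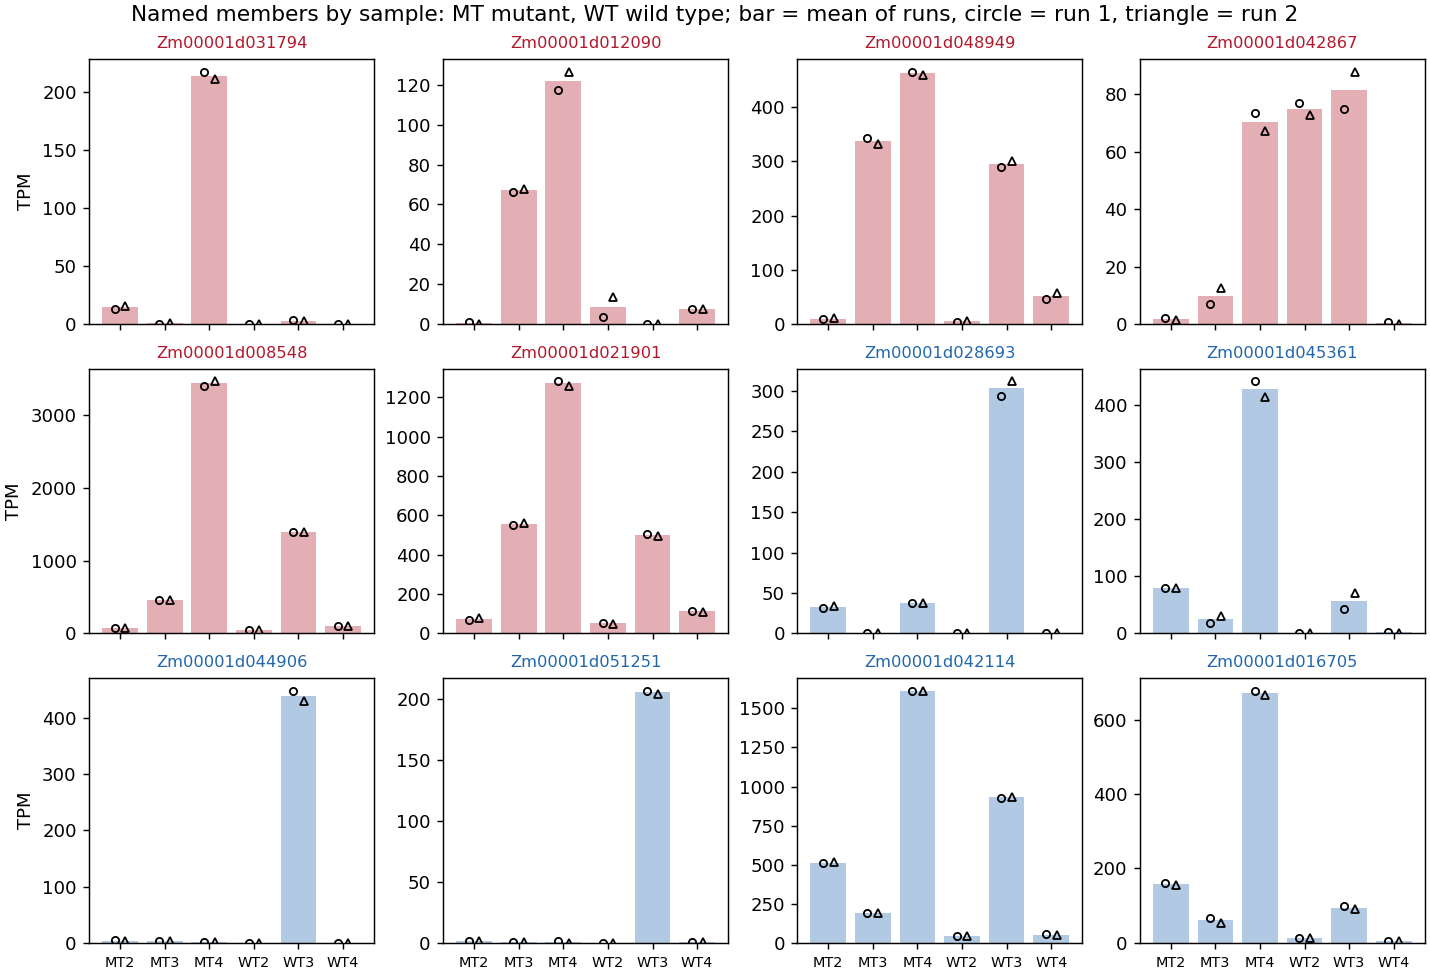
TPM (y axis) of the 12 named members in each sample, mutants (MT) left of wild types (WT): bars are means of 2 runs, circles run 1 and triangles run 2, red for the first pattern and blue for the second; samples of the same genotype differ widely, as for Zm00001d008548 at 72.1 and 3431 TPM in mutants 2 and 4.

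For many members 1 sample stood far above or far below the rest. For 60 of the 200 genes (30.0%) the highest sample was at least 4 times the next, against 0.876% of the 16778 genes. Of the 60, 28 were highest in mutant 4, 28 in wild type 3, 2 in mutant 3 and 2 in mutant 2. For 71 members (35.5%), against 1.44% of the 16778 genes, the lowest sample was at most 0.25 of the next, and wild type 2 was that sample for 49. A further 20 members had samples tied at 0 as their lowest. Mutant 4 was the highest sample for 48.5% of the members, beside 36.3% of the 16778 genes, and wild type 3 for 24.0% beside 12.3%. Mutant 3 was the highest for 20.5%, beside 10.7%. Wild type 2 was the lowest sample for 50% of the members, beside 16.7%. The members were chosen for large spread, so these shares describe the set.

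The 21 genes of the small profiles showed other forms. The largest of these profiles, 8 genes, ran opposite to the second pattern, with medians of 5.94, 29.9 and 6.48 TPM in mutants 2, 3 and 4, against 30.5, 0.730 and 34.1 TPM in wild types 2, 3 and 4. Another held 3 genes that peaked in mutant 3, at a median of 94.9 TPM, with 22.4 TPM in mutant 4 and 4.22 TPM in mutant 2, against 12.6, 1.83 and 3.55 TPM in wild types 2, 3 and 4. A profile of 2 genes, Zm00001d014155 and Zm00001d040089, named after their values were seen, was also low in mutant 4 and high in wild types 2 and 4. Of these, Zm00001d040089 was at 5.50, 12.5 and 2.69 TPM in mutants 2, 3 and 4, against 74.1, 12.3 and 48.8 TPM in wild types 2, 3 and 4.

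The profiles of the patterns were not limited to the 200 genes. Among the 16578 other genes with a mean of at least 5 TPM, 591 (3.57%) had a correlation of at least 0.9 with the mean profile of the first pattern over the 6 samples, and 308 (1.86%) had one of −0.9 or below. Their spread was smaller, with median SDs of 0.465 and 0.308. For the second pattern the numbers were 187 (1.13%) and 95 (0.573%). On the first principal component of the 16578 genes, which held 57.5% of their variance, the sample coefficients were 0.117, 0.097 and 0.713 for mutants 2, 3 and 4 and −0.454, 0.038 and −0.511 for wild types 2, 3 and 4. On that of the members, which held 53.4%, they were −0.231, 0.213 and 0.601 for mutants 2, 3 and 4 and −0.580, 0.317 and −0.321 for wild types 2, 3 and 4. Both set mutant 4 against wild types 2 and 4, but mutant 2 lay on the side of these wild types in the members and not in the other genes. In the other genes, which include the 3864 without overlap of the genotypes, every mutant lay above every wild type. In the members wild type 3 lay above mutants 2 and 3. The rule kept genes without overlap out of the members, so this difference is only a description. All of these values come from the same 6 samples.

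Members with neighbouring ID numbers often shared a profile. Within 3 ID numbers of each other lay 21 pairs, formed by 27 members, and 19 of the pairs belonged to the same profile. The first pattern held 131 of the 200 members, so many pairs of any members share a profile, and that share was not computed. The correlation over the 6 samples was at least 0.9 for 15 of the 21 (71.4%), beside 4.48% of the 18908 such pairs among the 16778 genes. Members vary more than other genes and were chosen for it, so the shares are not a like comparison. Whether neighbours are near-identical copies that share reads was not tested.

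Runs of such neighbours were found in each main pattern, and are named here after their values were seen. Zm00001d028814, Zm00001d028815 and Zm00001d028816 all belonged to the first pattern. Zm00001d028814 was at 38.5, 151 and 291 TPM in mutants 2, 3 and 4, against 13.0, 230 and 66.2 TPM in wild types 2, 3 and 4, and its correlation was 0.979 with Zm00001d028815 and 0.856 with Zm00001d028816. Zm00001d006534, Zm00001d006535, Zm00001d006536 and Zm00001d006538 formed the longest run, with correlations of 0.928 to 0.978 between its listed pairs. Zm00001d006538 was at 3.31, 90.2 and 37.4 TPM in mutants 2, 3 and 4, against 0.917, 3.35 and 9.60 TPM in wild types 2, 3 and 4, so mutant 3 was highest here. In the second pattern, Zm00001d044908 followed Zm00001d044906 at a correlation of 0.979, and Zm00001d051254 followed Zm00001d051251 at 0.989.

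The 2 runs of each sample gave the part of the technical error that differs between runs. The series text calls them technical replicates of 1 biological sample. Over the members the median difference between runs was 0.0884 to 0.130 units of log2(TPM + 1) in the mutants and 0.0848 to 0.134 in the wild types, far below the spread between samples. When the 200 genes were chosen from run 1 alone, their median SD was 1.99 in run 1 and 1.95 in run 2, and 166 of them had an SD in run 2 at or above the lowest of run 1. The runs share the plant and the dissection, so their difference holds neither. The titles give both runs of a sample the same code after the run number. Whether the difference holds RNA extraction or library preparation is not settled by the labels.

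For some members the spread was not stable between runs. The runs differed by more than 1 unit of log2(TPM + 1) in at least 1 sample for 28 members (14%), beside 2.83% of the 16778 genes. Of the 28, 14 were in the first pattern, 7 in the second and 7 in the small profiles, out of 21 genes there. The deposited average transcript length was under 300 bases for 24 of the 28. On the deposited scale members were short in general, with a median length of 743 bases beside 1293 over the 16778 genes, and 43 members (21.5%) were under 300 bases beside 5.53%. For 7 members all 6 samples together held fewer than 60 counts, and all 7 were under 300 bases. TPM divides by the length, so few counts can give a high TPM: Zm00001d035637, with a deposited length of 9.8 bases, reached 30.2 TPM in mutant 2 from 8 counts.

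The largest differences between runs were in genes that were at 0 in one run and high in the other, named here after their values were seen. Zm00001d005786 had 128 and 0 TPM in runs 1 and 2 of mutant 2, and 0 and 106 TPM in runs 1 and 2 of mutant 3. Its neighbour Zm00001d005787 had 0 and 121 TPM in runs 1 and 2 of mutant 2, and 123 and 0 TPM in runs 1 and 2 of mutant 3. In wild type 4 Zm00001d005786 had 106 and 0 TPM, and Zm00001d005787 had 0 and 79.3 TPM in the same order of runs. Where 1 of these 2 genes was read the other was at 0, and in mutants 2 and 3 and wild types 2 and 4 they changed places between the runs of a sample. Zm00001d045277, Zm00001d014155 and Zm00001d031671 also had samples at 0 TPM in 1 run and over 20 TPM in the other. Whether reads were assigned differently between near-identical genes in the 2 runs was not tested.

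**Figure D5:**
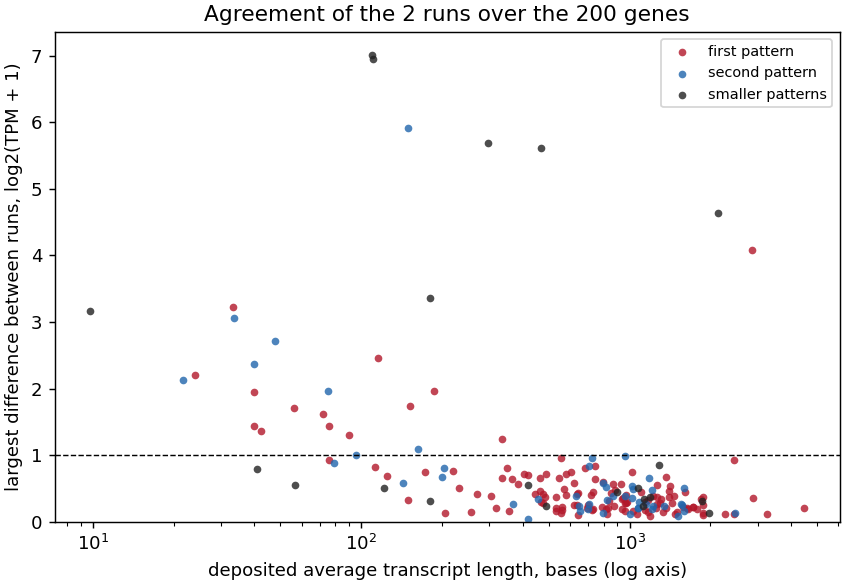
Largest difference between the 2 runs of a sample in log2(TPM + 1) (y axis) and deposited average transcript length in bases on a log axis (x axis), 1 point per member. The dashed line marks a difference of 1, which 28 members exceed, 24 of them with a length under 300 bases.

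The comparison of mutant with wild type was used by the rule, which asked for overlap, so the test of genotype is given for the members without reading a result from it. In edgeR's quasi-likelihood test over 22772 genes, 0 of the 182 members tested passed an adjusted p of 0.05, and 0% of all genes did, with a lowest adjusted p of 0.374 among members. At an unadjusted p under 0.05 edgeR gave 13 of the 182 members, beside 12.2% of all genes. DESeq2 called 5 of the 200, beside 2.35% of 28019 genes. The other 18 members did not pass edgeR's filter on low counts. In the authors' deposited table of transcripts at an adjusted p of up to 0.05, 52 of the 200 members (26.0%) had a listed transcript, beside 30.9% of the 16778 genes.

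Fold changes of the members are likewise a description, since mutant 4 and wild type 3 were the highest samples for most of the genes that the rule chose. The median log2 fold change of the 182 members, mutant over wild type, was 1.30, beside 0.005 over all genes tested, with 137 higher and 45 lower in the mutant. Without mutant 4 it was 0.265, with 105 members higher and 79 lower. Without mutant 3 it was 1.185, with 143 higher and 45 lower. Without wild type 3 it was 2.74, with 173 higher and 15 lower, and the lowest adjusted p by edgeR among members was 0.138.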

How the data were processed

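RNA of 6 maize samples, 3 mutant and 3 wild type, grouped by title, was sequenced in 2 runs each. The submitters' processing notes name STAR, Salmon and DESeq2 without roles or versions, and no label states a build or filter. The authors deposited estimated counts, TPM and average transcript length per gene and run. A second deposited table gives a log2 fold change and adjusted p-value per transcript, of which only the listing of genes was used. TPM summed to 976334 to 981645 per run. A floor of 3 counts is 0.0938 to 0.110 CPM. Columns left unused numbered 0.

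TPM was averaged over runs. Members were chosen with a pseudocount of 1 and grouped with scipy 1.17.1. Counts were summed over runs, rounded, and tested with edgeR 4.0.16 (quasi-likelihood, TMM, its expression filter, Benjamini-Hochberg adjustment, two-sided) in R 4.3.3. Alternatives used DESeq2 1.42.0 and limma 3.58.1. The p-values test whether mutant and wild type differ, judged by how far samples sharing a genotype vary. The scripts were tested on simulated data. Within each pattern of at least 10 genes, the 4 members of highest SD and the 2 of highest mean were named, besides ranks 199 to 202. Some alternatives were added after the data were seen. The members, lists and rules were chosen with earlier results of these data known.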

Additional observations from a re-analysis of the deposited data

How the results depend on the processing

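Chosen anew, the set held 85.0% of the 200 members with run 1 alone, 82.5% with run 2, 72.5% with TMM-scaled CPM, 77.5% with log2(TPM + 0.1), 92.5% with a mean of at least 1 TPM or no filter and 71.5% with no overlap asked for. It held 52.0% with a mean of at least 20 TPM, a limit that members with a lower mean cannot pass. With each sample left out it held 59.0% to 90.0%: leaving out mutant 2 gave 60%, mutant 4 gave 71.5% and wild type 3 gave 59.0%. Asking for runs within 1 log2 unit, chosen after seeing the data, gave 85.5%. The largest pattern held 131 genes, 84 at a distance of 0.3, and 93 to 155 with each sample left out, also added later; 93 was without mutant 4. The second largest, 48 genes, held 28 with run 2 alone, 30 at a distance of 0.3, 71 by Spearman's rho and 28 to 52 with each sample left out; 28 was without mutant 3. SDs of named members moved by under 1.5 times in 46 of 48 alternatives; with TMM-scaled CPM they were 1.73 for Zm00001d012090 and 1.86 for Zm00001d045361. The 0 genes called by edgeR became 658 with DESeq2, 5 of them members, and stayed at 0 with limma, median-of-ratios factors, no filter and each sample left out (0 to 0). The replicate block gave 0 calls. At an unadjusted p under 0.05 by edgeR it gave 43 of 182 members and 1790 of 22772 genes, in place of 13 and 2784. Leaving out mutant 4 gave 2 of 184 members and 1693 of 23059 genes. Leaving out mutant 2 gave 51 of 190 members and 3326 of 23308 genes. Leaving out wild type 3 gave 53 of 188 members and 3639 of 23242 genes. The rule used this contrast, so these counts only describe the set. Same-numbered samples had deviations from their genotype means correlating at 0.216, −0.268 and −0.176. With 3 samples per genotype these values depend on each other, so they cannot settle whether same-numbered samples were handled together. For the values that moved, the cause was not tested. Low counts limit some of the short members, as 7 of those under 300 bases held fewer than 60 counts in all.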
